A study of Mus musculus with 6 samples.

Results

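The Hox cluster genes of the mouse ovary were described by taking every row of the count table whose symbol was Hox, a cluster letter from a to d and a position number. This gave 39 of the 44788 genes listed: 11 in the Hoxa cluster, 10 in Hoxb, 9 in Hoxc and 9 in Hoxd. Of these, 29 had enough counts to be tested between genotypes, among 19423 genes tested in all. The genes were taken by name, not by how they moved.

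The RNA came from whole ovaries of C57BL/6 J female mice aged 8 weeks. There were 3 wild-type ovaries (Bnc1+/+, numbered 1, 4 and 7) and 3 homozygous mutant ovaries (Bnc1tr/tr, numbered 1, 2 and 3). Each has a single column of counts, from total RNA read on an Ion Proton sequencer. The Bnc1tr allele carries a small deletion in exon 4 that shifts the reading frame and ends the protein early. It models a human mutation linked to premature ovarian insufficiency and is present in every cell of the animal. The study states that it compared littermates and that the 3 replicates of a group were biological and analysed in duplicate. The labels name neither litters nor animals, so p-values measure the spread between these samples, part of which may be technical. In whole tissue, fewer cells of a type and less RNA per cell cannot be told apart.

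Hox genes encode homeodomain transcription factors that give cells their address along the head-to-tail axis. Within a cluster the genes lie in the order in which they are used: the low-numbered genes at the 3′ end act early and toward the head, and the high-numbered genes at the 5′ end act later and toward the tail. Genes with the same number in different clusters are paralogues, copies that arose when an ancestral cluster was duplicated, and often back each other up. Retinoic acid switches on the 3′ genes, Polycomb complexes keep the clusters silent, Trithorax complexes keep them open, and TALE proteins of the Pbx and Meis families bind DNA beside Hox proteins. In the female tract the posterior Hoxa genes mark successive parts of the Müllerian duct: Hoxa9 the oviduct, Hoxa10 and Hoxa11 the uterus, and Hoxa13 the cervix and upper vagina.

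What these proteins share is the homeobox, and the stretch that encodes the DNA-reading helix shows how close the members are. The coding bases of that helix, read from GENCODE M21 transcripts (GRCm38), are shown for Hoxa7 and Hoxb9, the members that ran in opposite directions below, with capitals marking bases unlike Hoxa7.
Hoxa7, chr6:52215849-52215887, minus strand: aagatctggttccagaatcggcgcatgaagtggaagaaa
Hoxb9, chr11:96274794-96274832, plus strand: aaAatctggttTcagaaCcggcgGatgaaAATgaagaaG
The stretch was found in all 39 members and was 39 bases long. It differed from that of Hoxa7 at 1 to 12 bases, and 14 members encoded the same 13 residues as Hoxa7. The most distant members differed at 3 residues.

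Each ovary had between 25247770 and 34406296 counts, and 3 counts, taken here as the floor of detection, corresponded to 0.0906 to 0.115 CPM, a gene's counts scaled to the library size. These limits cover counting error only. Bnc1 itself, the mutated gene, was counted at 13.9, 13.4 and 13.1 CPM in the Bnc1+/+ ovaries and at 18.7, 13.7 and 11.5 CPM in the Bnc1tr/tr ovaries, which overlap. Gene counts do not show the deletion, so the genotype was not checked by them. The ovaries differed in how much neighbouring tissue they held: summed CPM of 7 secretory oviduct and uterus markers ran from 49.3 to 152.5 in 5 ovaries and reached 503.7 in Bnc1tr/tr replicate 3, which also had the highest sum of 23 ciliated oviduct markers (284.1, against 45.0 to 124.0 in the others). Oocyte and granulosa markers were plentiful in every ovary. In the fit across all genes that is used below, 7 of 9 luteal and 4 of 7 endothelial markers were lower in Bnc1tr/tr, and 4 of 11 oocyte markers were higher. So were 1 of 9 granulosa, 1 of 7 secretory oviduct and uterus, 1 of 6 adipose and 1 of 11 stroma and smooth muscle markers, and 0 of 9 ovarian surface epithelium, 0 of 5 theca, 0 of 8 immune and 0 of 19 tested ciliated markers were called.

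The ovary had a clear Hox profile, with the highest levels in the middle of the Hoxc cluster and in Hoxd. Levels between genes are compared as CPM per kilobase of exon, averaged over the 3 Bnc1+/+ ovaries. Hoxc6, a central gene known from thoracic patterning, stood at 35.4, followed by Hoxd9 at 19.7, Hoxd8 at 13.2, Hoxd4 at 11.4 and Hoxd10 at 7.65. The Hoxb genes that passed the filter lay between 0.390 for Hoxb8 and 4.02 for Hoxb9. The tested Hoxa genes lay between 0.0876 for Hoxa9 and 0.831 for Hoxa7. Hoxd3 and Hoxd4 are given with a limit: 62.3% of the exon bases of Hoxd3 and 52.3% of those of Hoxd4 are shared on the same strand, so that the counting could have split or dropped their reads.

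**Figure D1:**
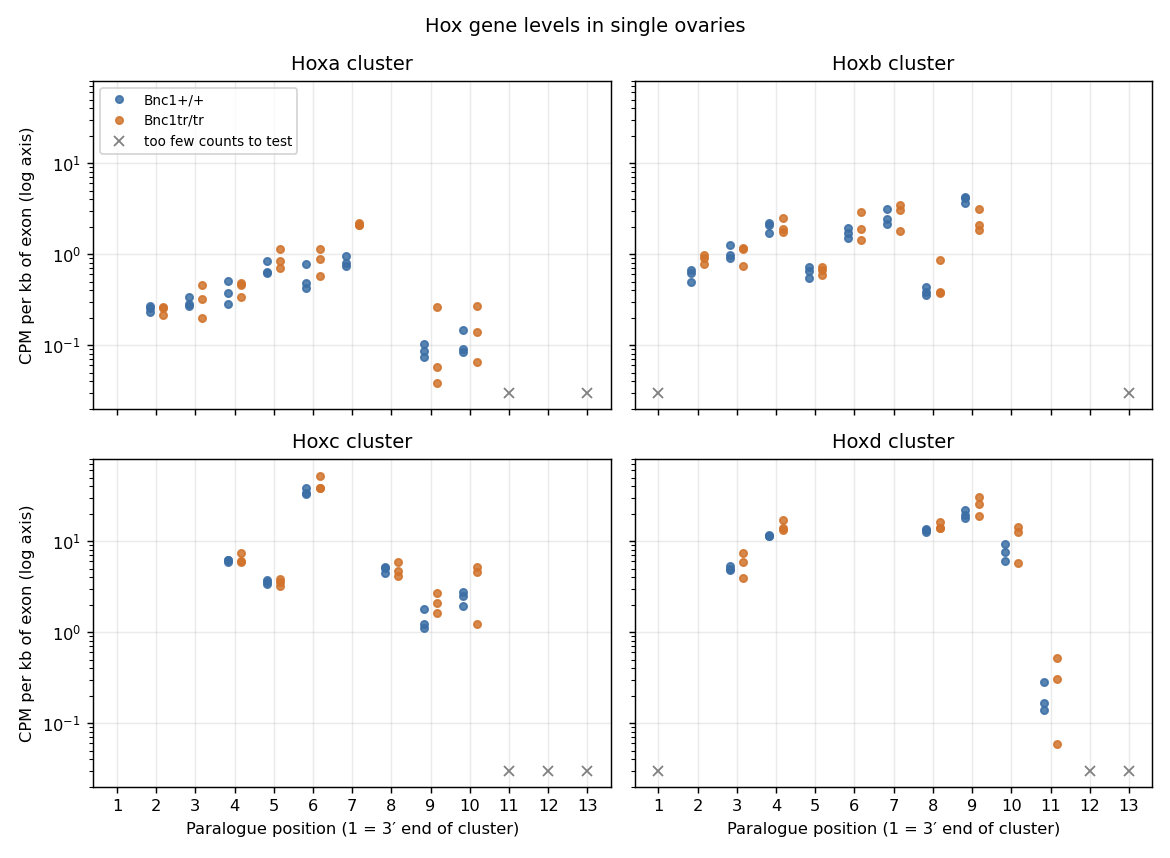
Levels of 28 of the 29 tested Hox genes in single ovaries, as CPM per kilobase of exon on a log axis, against paralogue position in each cluster (blue, the 3 Bnc1+/+ ovaries; orange, the 3 Bnc1tr/tr ovaries; grey crosses at the bottom, members with too few counts to test, drawn at no measured height). Hoxc6 stands highest in both genotypes, Hoxa7 shows orange points above all blue ones, Hoxb9 shows the reverse, and the orange points spread widely at positions 9 to 11.

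Summed over all 39 members, the Hox genes amounted to 331, 317 and 320 CPM in Bnc1+/+ replicates 1, 4 and 7, and to 320, 463 and 377 CPM in Bnc1tr/tr replicates 1, 2 and 3. The lowest mutant ovary thus lay inside the wild-type range and the highest well above it. Hoxc6 alone made up 24.7% to 29.1% of this sum in all 6 ovaries, and Hoxd9 a further 11.9% to 14.6%. The Hoxd cluster summed to 148 ± 9.53 CPM in Bnc1+/+ and 183 ± 37.1 in Bnc1tr/tr, and the Hoxc cluster to 134 ± 6.41 and 159 ± 28.6 (mean ± SD, n = 3). The Hoxb cluster summed to 32.2 ± 1.06 and 30.5 ± 5.89 CPM. In these 3 clusters the mutant ovaries overlapped the wild type.

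The Hoxa cluster, the lowest of the 4 by summed CPM, was the exception. It summed to 8.70, 8.19 and 8.80 CPM in the Bnc1+/+ ovaries and to 12.9, 16.8 and 14.2 CPM in the Bnc1tr/tr ovaries. All mutant ovaries lay above all wild-type ovaries, and the ratio of the means was 1.71. Most of this came from Hoxa7, described below.

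The members with the fewest counts were those of the tail end and the very 3′ end. Hoxb13, Hoxc12 and Hoxc13 had 0 counts in all 6 ovaries. Hoxa11 had 2 counts in 1 Bnc1tr/tr ovary and none elsewhere, and Hoxa13 had at most 5 in an ovary. Hoxb1, a hindbrain gene, had 0 counts in Bnc1+/+ and 7 in all Bnc1tr/tr ovaries together, and Hoxd1 had 1 and 11. Hoxc11 had 8 and 19 counts, Hoxd12 had 10 and 4, and Hoxd13 had 8 and 1. No fold is given for these 10 genes, which were below the filter. Hoxa9, the oviduct gene of the Müllerian series, was tested but low, with 11, 19 and 14 counts in Bnc1+/+ against 6, 38 and 9 in Bnc1tr/tr. The ovary richest in oviduct markers, Bnc1tr/tr replicate 3, had 9 of these counts, and replicate 2 had 38. Whether oviduct tissue bears on Hoxa9 was not tested, and the counts are low.

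The main question was which Hox genes differed between Bnc1tr/tr and Bnc1+/+ ovaries. By edgeR's quasi-likelihood test, adjusted after Benjamini and Hochberg over all 19423 genes, 2 of the 29 tested Hox genes rose in Bnc1tr/tr and 0 fell. Over all genes tested, 2.88% were called higher and 4.19% lower, so 2 of 29 is not far from the background. At an unadjusted p under 0.05, 5 Hox genes were higher and 1 was lower, against 11.9% and 12.3% of all genes. DESeq2 called 2 higher and 1 lower, and limma-voom 2 and 0. Over all genes, DESeq2 called 1050 higher and 1294 lower of 20604, and limma-voom 519 and 784 of 19423. With library size as the only scaling, the median of all genes moved from 0.018 to 0.12, the calls over all genes moved from 559 higher and 813 lower to 1112 and 616, and 3 Hox genes were higher and 0 lower.

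The fitted differences leaned upward. The log2 fold change was above 0 for 25 of 29 Hox genes, against 52.6% of all genes tested, and its median was 0.30, against 0.018 over all genes. For 6 Hox genes all 3 Bnc1tr/tr ovaries lay above all 3 Bnc1+/+ ovaries and for 1 they lay below, while 15% and 15.8% of all genes did so. The upward lean rested on Bnc1tr/tr replicate 2, which was the highest of the 6 ovaries for 21 of the 29 Hox genes but for 14.6% of all genes. Without that ovary the median was 0.036 and 16 of 29 genes were above 0. Scaled to the stroma and smooth muscle markers, a setting chosen after seeing the data, the median was 0.087, 16 of 29 were above 0, and the median of all genes moved to -0.18.

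By cluster, 8 of 9 tested Hoxa genes had a log2 fold change above 0 with a median of 0.42, 6 of 8 Hoxb genes with a median of 0.082, 5 of 6 Hoxc genes with a median of 0.19, and 6 of 6 Hoxd genes with a median of 0.36. By position, the median was 0.15 for the 6 tested genes at positions 1 to 3, 0.15 for the 15 at positions 4 to 8, and 0.53 for the 8 at positions 9 to 13. Hoxa7 was called among the central genes, and none of the posterior group was called.

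**Figure D2:**
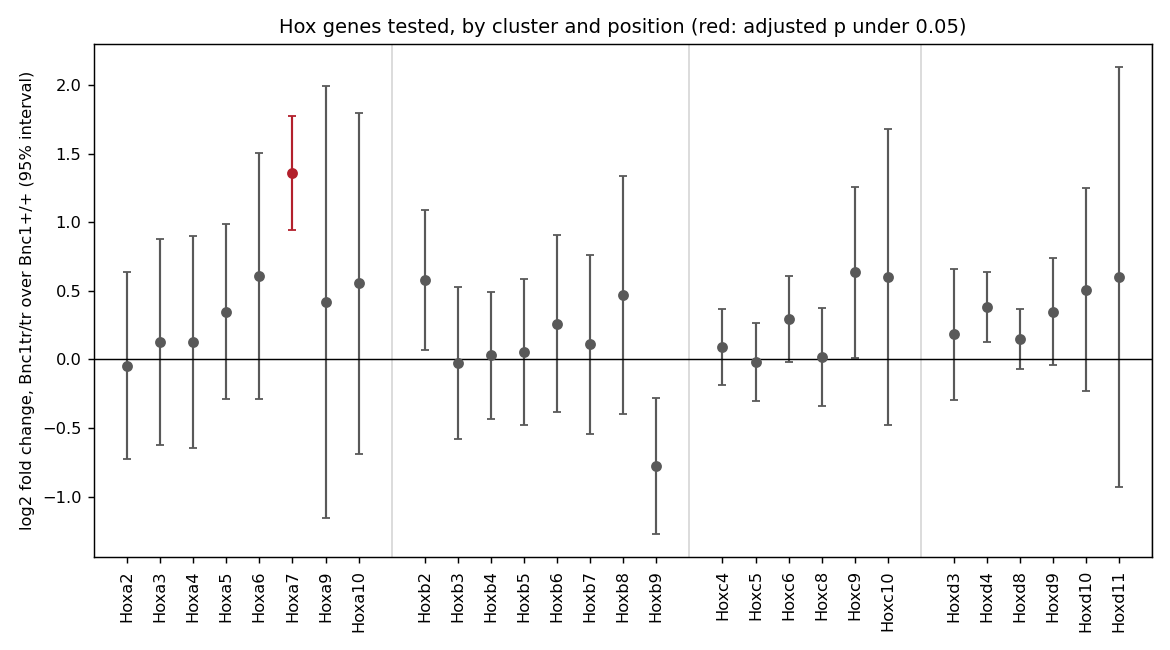
Log2 fold change of Bnc1tr/tr over Bnc1+/+ for 28 of the 29 tested Hox genes, ordered by cluster and position, with 95% intervals from edgeR's quasi-likelihood fit (red, adjusted p under 0.05). Hoxa7 stands at 1.36, and Hoxb9 is the lowest at -0.78. The posterior genes Hoxa9, Hoxd11, Hoxa10 and Hoxc10 have the widest intervals, while those of Hoxb9 and Hoxd9 are narrower than those of the central genes Hoxa6 and Hoxb8.

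Hoxa7 had the lowest adjusted p of the tested Hox genes. This central gene, an Antennapedia-type factor of the trunk that has been described in ovarian follicles, lies on mouse chromosome 6 (GRCm38, chr6:52214491-52221854, minus strand). It was counted at 2.71, 2.15 and 2.31 CPM in the Bnc1+/+ ovaries and at 6.40, 6.01 and 5.99 CPM in the Bnc1tr/tr ovaries. The mutant ovaries lay within 1.07-fold of each other and all lay far above the wild type. Hoxa7 rose 2.57-fold, a log2 fold change of 1.36 (SE 0.18, 95% interval 0.94 to 1.78, edgeR's quasi-likelihood test, adjusted p = 0.00626). The call held with each of the 6 ovaries left out in turn, with adjusted p between 0.0159 and 0.0456. With Bnc1+/+ replicate 1 and Bnc1tr/tr replicate 3 left out together, the ovaries with the highest sums of oviduct markers in their genotypes, the log2 fold change was 1.47 and the adjusted p was 0.0505. That fit has fewer ovaries and called 72 genes higher and 232 lower over all genes, against 559 and 813 in the main fit.

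Hoxa2 to Hoxa6, the 5 members next to Hoxa7 on its 3′ side, were not called. Their log2 fold changes ran from -0.045 for Hoxa2 to 0.61 for Hoxa6, whose 95% interval was -0.288 to 1.502. On the other side of Hoxa7, Hoxa9 stood at 0.42 with an interval of -1.16 to 1.99. These intervals reach the size of the Hoxa7 difference in the case of Hoxa6 and Hoxa9, and whether Hoxa7 differed more than its neighbours was not tested. The intervals of Hoxa2, Hoxa3 and Hoxa4 ended at 0.64, 0.88 and 0.90, below the lower bound of 0.944 for Hoxa7. That of Hoxa5 ended at 0.988, above this bound.

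Beyond the 5′ end of the same cluster lies Evx1, a homeobox gene of the even-skipped type at chr6:52313498-52318389, 52.6 kb from Hoxa13. It is no Hox gene and was 1 of 19 protein genes listed as flanking the 4 clusters, of which 16 were tested. It was counted at 2.83, 2.54 and 2.14 CPM in Bnc1+/+ and at 6.44, 4.89 and 6.03 CPM in Bnc1tr/tr, so the groups did not overlap. Evx1 rose 2.31-fold, a log2 fold change of 1.21 (SE 0.20, edgeR's quasi-likelihood test, adjusted p = 0.0151), and was the only one of the 16 flanking genes called in either direction. The median of those 16 was 0.030. Leaving out Bnc1+/+ replicate 4 or 7 took its adjusted p to 0.0804 or 0.0629, and leaving out Bnc1+/+ replicate 1 and Bnc1tr/tr replicate 3 together took it to 0.0937 at a log2 fold change of 1.26.

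The long noncoding RNA Mira, chosen after its values were seen, had 10, 14 and 10 counts in Bnc1+/+ against 28, 18 and 28 in Bnc1tr/tr, a log2 fold change of 1.22 that missed the threshold (edgeR's quasi-likelihood test, adjusted p = 0.0523). RefSeq places it at chr6:52214491-52215288, inside the 3′ end of Hoxa7, so its reads and those of Hoxa7 cannot be told apart here. The strand setting of the counting is not known. On the opposite strand, 20.4% of the exon bases of Hoxa7 are shared with Hoxaas3, an antisense transcript of the cluster whose reads could have been counted with Hoxa7 in the same way. Hoxaas3, listed under its older symbol 2700086A05Rik, had at most 2 counts in an ovary.

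**Figure D3:**
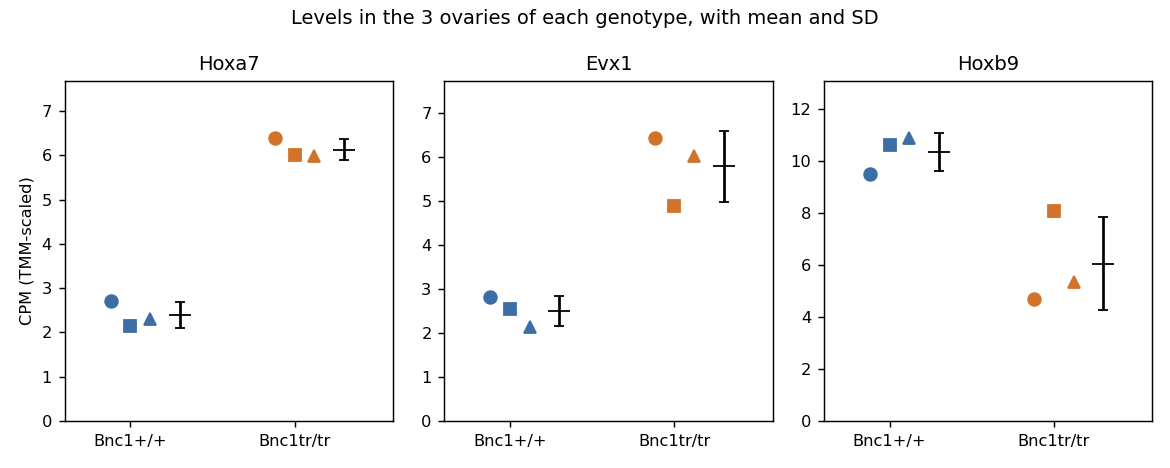
TMM-scaled CPM of Hoxa7, Evx1 and Hoxb9 in each ovary (circle, square and triangle are replicates 1, 4 and 7 of Bnc1+/+ in blue and 1, 2 and 3 of Bnc1tr/tr in orange), with the mean and SD of each genotype in black; each axis starts at 0. The 3 orange points lie above all blue points for Hoxa7 and Evx1 and below them for Hoxb9, where Bnc1tr/tr replicate 2 at 8.08 CPM comes closest to the wild type.

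Hoxa7 and Evx1 moved beside markers of other cells of the ovary. Summed CPM of 11 oocyte markers was 755, 717 and 583 in Bnc1+/+ against 1110, 730 and 1110 in Bnc1tr/tr, and 4 of the 11 rose, among them Gdf9, Bmp15 and Oosp1. None of the 11 was at 0. Among the mutant ovaries the oocyte sum was lowest in replicate 2. In replicates 1, 2 and 3 Evx1 was at 6.44, 4.89 and 6.03 CPM, and Hoxa7 at 6.40, 6.01 and 5.99 CPM. Whether either gene followed the oocyte sum across these 3 ovaries was not tested. With the oocyte marker mean added to the fit, a setting chosen after seeing the data, Hoxa7 stood at 1.29 and Evx1 at 0.77, neither of them called, in a fit that called 4 genes higher and 9 lower among all genes. The summed CPM of the 9 luteal markers was lower over the same ovaries, from 22680 to 26450 summed CPM in Bnc1+/+ and from 6970 to 12490 in Bnc1tr/tr. Of 11 stroma and smooth muscle markers 1 rose, Nr2f2. The part of these cells in the Hox results was not tested beyond that fit. Scaled to the stroma markers, Hoxa7 stayed called at 1.17.

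Hoxa7 also stands out in its 3′ untranslated region. The miRNAs of the miR-196 family are encoded inside the Hoxa, Hoxb and Hoxc clusters and are known to repress Hoxb8, Hoxa7 and Hoxc8. Their mature forms share a seed (bases 2 to 8, in capitals, from RefSeq, GRCm38.p6).
mmu-miR-196a-5p: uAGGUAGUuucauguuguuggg
mmu-miR-196b-5p: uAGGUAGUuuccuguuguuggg
The seed match ACTACCT, on the transcript strand only, was present in the longest 3′ untranslated region of 9 of 39 Hox genes and of 6.66% of the 14398 tested genes with such a region. Hoxa7 held it at 4 places, and 3 of those 14398 genes, Hoxa7 included, held it at 4 or more. The 4 places are printed because they lie in the member with the lowest adjusted p, with the match in capitals and all on the minus strand of chromosome 6.
Hoxa7 place 1, chr6:52215400-52215421: ggcacagccaaaatACTACCTa
Hoxa7 place 2, chr6:52215363-52215384: agaggcactcccaaACTACCTa
Hoxa7 place 3, chr6:52215231-52215252: aaaccatgatcaatACTACCTa
Hoxa7 place 4, chr6:52215210-52215231: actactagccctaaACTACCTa
Hoxc8 held 2 such matches. The 8 tested Hox genes with a match had a median log2 fold change of 0.30, and the 21 without had a median of 0.30 as well. Hoxb8, named above as repressed by miR-196, held no exact match and counts among those without. The medians therefore do not compare known targets with other genes. Counts at the Mir196a-1 locus, near Hoxb9, were 49, 80 and 52 in Bnc1+/+ against 50, 48 and 63 in Bnc1tr/tr, with a log2 fold change of -0.047 (95% interval -0.60 to 0.51). Mir196b and Mir196a-2 had 0 counts in every ovary. The 85 bases of Mir196b lie within exons of Hoxa9 on the same strand, so its reads could have been dropped or given to Hoxa9. These libraries count precursor RNA at best, and the mature miRNAs were not measured.

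Hoxb9, the last well-expressed gene of the Hoxb cluster, which patterns the thorax with its paralogues, ran the other way. It was counted at 9.52, 10.6 and 10.9 CPM in Bnc1+/+ and at 4.70, 8.08 and 5.36 CPM in Bnc1tr/tr. All 3 mutant ovaries lay below all wild-type ovaries, and the spread within the mutants, 1.72-fold, was wider than the 1.15-fold spread within the wild type. The log2 fold change was -0.78 (95% interval -1.27 to -0.28) and missed the threshold (edgeR's quasi-likelihood test, adjusted p = 0.0714). It passed in DESeq2 (adjusted p = 0.0115) and in edgeR without Bnc1tr/tr replicate 2 (adjusted p = 0.0189). With the oocyte marker mean added to the fit, the log2 fold change was -0.18 (adjusted p = 0.885 in edgeR). Its neighbours Hoxb8 and Hoxb7 stood at 0.47 and 0.11. Its paralogues Hoxa9, Hoxc9 and Hoxd9 stood at 0.42, 0.63 and 0.35, none called, so Hoxb9 was the only member of position 9 below 0.

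Apart from Hoxa7, the 2 members of each cluster with the highest level per kilobase were not called. Hoxc6 was counted at 81.8, 80.5 and 93.2 CPM in Bnc1+/+ and at 93.4, 126.5 and 93.6 CPM in Bnc1tr/tr. The groups touched without overlapping, and the log2 fold change was 0.30 (95% interval -0.018 to 0.61). Hoxc4, of the same cluster, was at 15.9, 14.99 and 15.9 CPM against 15.1, 19.1 and 15.5, with overlap and an interval of -0.19 to 0.36, which leaves no room for a difference of the size seen for Hoxa7.

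Hoxd8 was counted at 37.1, 36.7 and 34.9 CPM in Bnc1+/+ and at 38.0, 44.5 and 38.0 CPM in Bnc1tr/tr, with a log2 fold change of 0.15 (95% interval -0.069 to 0.37). Hoxd9, which shapes the limb and the lumbar region, was at 46.8, 41.6 and 38.0 CPM against 40.8, 64.9 and 55.0, with a log2 fold change of 0.35 (95% interval -0.043 to 0.74). In both the highest ovary was Bnc1tr/tr replicate 2. Hoxb7 was at 4.83, 3.72 and 3.35 CPM against 2.77, 4.70 and 5.36, and Hoxa5, a gene of the lung and the thorax, was at 1.56, 1.21 and 1.17 CPM against 1.32, 2.12 and 1.59, and both overlapped.

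Among the remaining tested members, chosen here after their values were seen, Hoxd4 and Hoxb2 had mutant ovaries all above the wild type. Hoxd4 was at 33.3, 34.1 and 33.8 CPM against 39.2, 51.0 and 41.5, a log2 fold change of 0.38 (edgeR's quasi-likelihood test, adjusted p = 0.0836) with the shared exons named above. Hoxb2 was at 2.34, 2.15 and 1.72 CPM against 2.74, 3.39 and 3.17, a log2 fold change of 0.58 (edgeR's quasi-likelihood test, adjusted p = 0.158), and 27.3% of its exon bases are shared with the antisense transcript Hoxb3os. Hoxb3, Hoxc5 and Hoxa2 were the other genes below 0, at -0.028, -0.018 and -0.045.

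The posterior genes varied widely among the mutant ovaries. For the 8 tested genes at positions 9 to 13, the median ratio of the highest to the lowest ovary was 3.32 within Bnc1tr/tr and 1.47 within Bnc1+/+. For the 21 anterior and central genes it was 1.40 and 1.27, and for all tested genes with a count in every ovary 1.29 and 1.22. Bnc1tr/tr replicate 1 was the lowest of the 6 ovaries for 6 of the 8 posterior genes, against 24.6% of all genes, and Bnc1tr/tr replicate 2 was the highest for 7 of the 8, against 14.6% of all genes. These shares are descriptions, since the genes of a cluster are not independent of each other.

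Hoxd10, a gene of the limb and the lumbar spinal cord, shows the pattern. It was counted at 16.9, 13.7 and 11.1 CPM in Bnc1+/+ and at 10.4, 25.9 and 23.0 CPM in Bnc1tr/tr. Hoxc10, its paralogue, was at 5.28, 3.72 and 4.83 CPM against 2.35, 9.93 and 8.67. In each gene replicate 1 of the mutants lay below the wild-type range and replicates 2 and 3 lay above it. Their log2 fold changes were 0.51 and 0.60 and were not called, but without Bnc1tr/tr replicate 1 they were 0.81 and 1.01, both past the threshold (edgeR's quasi-likelihood test, adjusted p = 0.0478 and 0.0356).

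Hoxd11, Hoxa9 and Hoxa10, named here after their values were seen, also varied widely. Hoxd11 had 32, 23 and 17 counts in Bnc1+/+ against 7, 57 and 37 in Bnc1tr/tr, an 8.81-fold span of CPM within the mutants. Hoxa9 spanned 6.85-fold and Hoxa10 4.15-fold within the mutants, each from at most 38 counts in an ovary. The anterior gene Hoxd3 followed the same order at 22.6, 20.7 and 20.5 CPM against 16.5, 31.0 and 24.9, so the order was not limited to posterior genes.

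**Figure D4:**
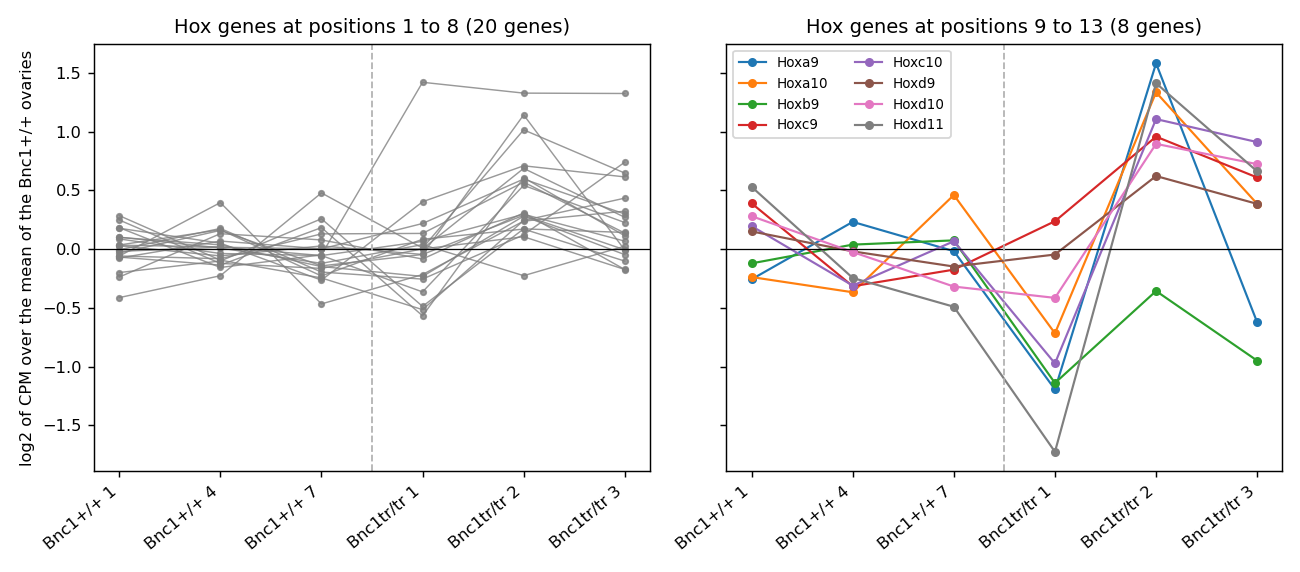
Log2 of each ovary's CPM over the mean of the Bnc1+/+ ovaries, for 20 of the 21 tested Hox genes at positions 1 to 8 (left, grey lines) and the 8 at positions 9 to 13 (right, a colour for each gene); ovaries are along the horizontal axis and the dashed line parts the genotypes. On the right the lines stay close in Bnc1+/+. In Bnc1tr/tr replicate 1, 6 of the 8 lines are at their lowest, while Hoxc9 and Hoxd9 lie inside the wild-type range. Among the mutants the lines peak in replicate 2, with Hoxb9 (green) below 0 throughout. On the left the line of Hoxa7 stands above 1 in all 3 mutant ovaries.

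Other measures differed along the same mutant ovaries. The summed CPM of the retinoic acid genes was 2109 in Bnc1tr/tr replicate 1, 3398 in replicate 2 and 2786 in replicate 3, against 2138 to 2456 in Bnc1+/+, most of it Aldh1a1, which makes retinoic acid. Stroma and smooth muscle markers summed to 3272, 3939 and 3680 CPM in the mutants and to 2949 to 3395 in the wild type. Immune markers summed to 178, 336 and 217 CPM in the mutants and to 265 to 286 in the wild type. Theca markers ran the other way, at 544 CPM in replicate 1 against 196 and 230 in replicates 2 and 3, and at 180 to 287 in the wild type. Among them Cyp17a1 was at 235, 3.66 and 5.46 CPM in the mutants. It also varied within the wild type, at 8.62, 124 and 21.6 CPM. Secretory oviduct and uterus markers summed to 49.3, 57.0 and 503.7 CPM in the mutants and to 54.4 to 152.5 in the wild type. Replicate 1 was thus lowest here as well, while replicate 3, not replicate 2, was highest. Adipose markers, a sign of fat around the ovary, summed to 447, 309 and 38.5 CPM in the mutants and 19.4 to 118.6 in the wild type. The part of any of these cells in the spread of the Hox genes was not tested.

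Genes that work with or upstream of the Hox clusters were counted by list, to be read against the 2.88% called higher and 4.19% called lower over all genes. Of 9 cofactors of the Pbx, Meis and Pknox families, 1 rose and 0 fell, with a median log2 fold change of 0.14. Meis2, which helps Hox proteins bind DNA, was at 14.3, 13.3 and 12.4 CPM in Bnc1+/+ and at 17.3, 21.9 and 20.97 CPM in Bnc1tr/tr without overlap, a log2 fold change of 0.59 (edgeR's quasi-likelihood test, adjusted p = 0.033).

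Of 23 Polycomb genes, 1 rose and 1 fell, with a median of 0.12. Cbx2, a chromobox subunit of the Polycomb repressive complex that holds Hox genes silent and is also needed for gonad development, was at 50.1, 46.3 and 49.7 CPM in Bnc1+/+ and at 83.2, 63.0 and 72.5 CPM in Bnc1tr/tr, a log2 fold change of 0.58 (edgeR's quasi-likelihood test, adjusted p = 0.0248). Jarid2, which helps recruit the complex that writes the silencing mark, was at 82.5, 75.7 and 94.6 CPM against 58.2, 62.5 and 62.9, a log2 fold change of -0.46 (edgeR's quasi-likelihood test, adjusted p = 0.0367). Of 12 Trithorax genes, 1 rose, Psip1, whose product tethers the MLL complex to chromatin, with a log2 fold change of 0.41 (edgeR's quasi-likelihood test, adjusted p = 0.0347), and 0 fell, with a median over the 12 of 0.076.

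All 16 tested retinoic acid genes of 18 listed had a log2 fold change above 0, with a median of 0.28, but only Crabp2 passed the test. Crabp2, which carries retinoic acid into the nucleus, was at 17.1, 22.8 and 16.2 CPM in Bnc1+/+ and at 29.2, 29.8 and 28.4 CPM in Bnc1tr/tr. The groups did not overlap, and the log2 fold change was 0.64 (edgeR's quasi-likelihood test, adjusted p = 0.036). Of 8 genes listed as acting upstream of the clusters, such as the Cdx genes, 5 were tested and 0 were called, with a median of 0.064, and 2 had an unadjusted p under 0.05. Of 19 noncoding transcripts of the clusters that were listed, 12 were in the table and 3 had enough counts to test, and 0 were called or had an unadjusted p under 0.05. Hotair, the antisense transcript of the Hoxc cluster, had at most 4 counts in an ovary.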

How the data were processed

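Total RNA of 6 ovaries was extracted with TRIzol and read single-end on an Ion Proton. The authors deposited 1 table of raw counts per gene symbol, with a column for each ovary. Per the submitters' processing notes the builds were mm10 and, for no stated use, Sscrofa10.2. The aligner, the counter, the annotation and the use of strand are not given in the sources used here. Reads that match several paralogues or overlapping genes may have been dropped or split.

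Counts were tested in R 4.3.3 with edgeR 4.0.16 (TMM scaling, filterByExpr with its minimum count of 10, glmQLFit and glmQLFTest, two-sided, Benjamini-Hochberg, threshold 0.05) over all genes. The common biological coefficient of variation was 0.186. CPM used TMM-scaled library sizes, the counts in tested genes (25222673 to 34375698 in an ovary) times each ovary's TMM factor. The fit was tested on simulated data. Exon lengths, overlaps and transcripts came from GENCODE M21 (GRCm38). RefSeq gave neighbours and miRNAs. Of the listed names, 3 were matched by a synonym and 8 were not in the table. Alternatives used limma 3.58.1, DESeq2 1.42.0, other scalings, filters and covariates, and fits without single ovaries.

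Members and lists were chosen with earlier results of these data known. Values in every ovary were given for members past the threshold in the main test, in DESeq2, in limma-voom or with an ovary left out, and for the 2 members of each cluster with the highest level per kilobase. Of other lists, called genes were named. 1 member is not reported here, but counts, sums and medians over the members include it.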

Additional observations from a re-analysis of the deposited data

How the results depend on the processing

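The count of 2 Hox genes higher was the same with RLE scaling, no filter, 10 counts in every ovary, DESeq2, limma-voom, the ciliated oviduct covariate, the stroma scaling and an added bound of 1 on the log2 fold change, and was 3 with library size only. It was 1 to 3 with a single ovary left out, 0 with both oviduct-rich ovaries left out, 0 with the oocyte covariate and 5 at an unadjusted p under 0.05. Over all genes, calls fell from 559 higher and 813 lower to 72 and 232 without both oviduct-rich ovaries. With the oocyte covariate they fell to 4 and 9. The count of 0 lower was 0 to 1 with an ovary left out and 1 with DESeq2, with the stroma scaling and at an unadjusted p under 0.05. The median log2 fold change of 0.30 ran from 0.036 to 0.46 with an ovary left out, where the fits have fewer samples, and was 0.59 with the oocyte covariate. Direction reversed for Hoxb7 (main 0.11) which ran from -0.086 (without Bnc1tr/tr replicate 3) to 0.34 with an ovary left out, at -0.005 without Bnc1+/+ replicate 7 and -0.099 with the stroma scaling, for Hoxc4 (main 0.087) at -0.026 without Bnc1tr/tr replicate 2, within a range of -0.026 to 0.15 over the ovaries left out, and -0.12 with the stroma scaling, and for Hoxd8 (main 0.15) at -0.054 with the stroma scaling. The cause was not tested. The stroma scaling and the oocyte covariate were chosen after seeing the data. No paired analysis was possible because the labels name neither litters nor animals. With 3 ovaries a genotype, the lowest Hoxa genes could differ by more than their fits show.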
